A study of Mus musculus with 2 samples.

Results

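Mir99a, Mir99b, Mir100, Mir125a, Mir125b-1 and Mir125b-2 are 6 mouse miRNA genes that lie, each time with a let-7 gene, at 3 related places in the genome. They were chosen by gene symbol, and all 6 were found among the 1973 miRNA genes counted in the series. The series holds 1 group: limbs of mouse embryos of the B6NCrl strain at embryonic day 13.5, healthy and with no treatment named, male and female pooled, as 2 biological replicates that carry 1 donor label. No mutant, treated or other tissue is part of the group, so the genes were compared with each other within a library and against the spread of the libraries. The limb tissue was sequenced in bulk, so fewer cells of a type and less miRNA per cell cannot be told apart, and the p-values measure only the difference between these libraries.

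A miRNA gene is transcribed as part of a longer RNA from which a hairpin is cut, and an arm of the hairpin becomes the mature miRNA. Bases 2 to 8 of the mature miRNA, the seed, pair with messenger RNAs that are then repressed. The mir-99/100 genes, let-7 and mir-125 form an old cluster of animals: miR-125 is the counterpart of the worm developmental timing gene lin-4, let-7 is a second timing gene, and in flies miR-100, let-7 and miR-125 are made from a shared transcript. In mammals the cluster is present as paralogous copies. Among the known targets are the growth regulators Mtor and Igf1r for the miR-99/100 seed, and Lin28, itself a regulator of let-7, for the miR-125 seed.

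The mature 5p miRNAs (from the 5′ arm of the hairpin) show which genes a short read can tell apart, and they are printed with the seed in capitals. They are RefSeq sequences on GRCm38, which holds the same coordinates as mm10, and all 6 members had an entry.
miR-99a-5p: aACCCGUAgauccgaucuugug
miR-100-5p: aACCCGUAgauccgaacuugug
miR-99b-5p: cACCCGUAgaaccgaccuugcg
miR-125a-5p: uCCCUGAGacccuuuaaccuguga
miR-125b-5p: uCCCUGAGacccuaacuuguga
miR-351-5p: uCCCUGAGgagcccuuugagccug
miR-10a-5p: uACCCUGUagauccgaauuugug
miR-10b-5p: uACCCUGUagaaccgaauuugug
Mir99a, Mir99b and Mir100 share 1 seed, and the mir-125 genes share another. From miR-99a-5p to miR-100-5p there is 1 substitution, U16A, counted from the 5′ end of the miRNA. From miR-99a-5p to miR-99b-5p there are 4, A1C, U11A, U16C and U21C, all outside the seed. miR-125a-5p is 24 bases long and miR-125b-5p 22, and 3 single-base edits separate them. miR-125b-5p is the 1 mature sequence among these that stands in the hairpins of 2 members, Mir125b-1 and Mir125b-2. The other sequences are those of Mir351, which carries the mir-125 seed without being a member, and of Mir10a and Mir10b. miR-10a-5p lies 3 single-base edits from miR-100-5p, and it has another seed.

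The arms that distinguish the Mir125b genes are the 3p miRNAs, shown for that reason beside the 3p miRNA of Mir125a.
miR-125b-1-3p: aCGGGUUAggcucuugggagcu
miR-125b-2-3p: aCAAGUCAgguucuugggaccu
miR-125a-3p: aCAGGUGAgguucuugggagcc
Each of these stands in 1 annotated hairpin, and their seeds all differ. In Mir125b-1 and Mir125b-2 the 5p sequence becomes particular to a hairpin once it runs 1 base past its 3′ end or 3 bases past its 5′ end. The tables put multimapping reads (those with several matches in the genome) on a line of their own, but the rule by which reads were assigned to genes is not given. If multimapping reads entered no gene, as a separate line for them would have it, a read of exactly miR-125b-5p was counted for neither gene. The counts are per hairpin and do not separate the arms.

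Sense counts over all miRNA genes summed to 5927321 out of 12407140 reads in replicate 1, and to 6003632 out of 12657170 in replicate 2. A level in CPM is the sense count out of every 1000000 counts of this sum, and intervals are exact binomial 95% intervals that cover counting error only. A read is taken as a mature miRNA, so counts were not divided by hairpin length unless stated. The labelled tissue was checked against marker miRNA genes, and the summed CPM of the libraries ranged from 90701 to 99626 for Hox cluster genes of limb position and from 48605 to 48690 for cartilage. For skeletal muscle it was 3741 to 3940, for surface ectoderm 14240 to 16371 and for endothelium 19637 to 20830. The listed markers of tissues outside the limb were lower: 66.8 to 80.6 CPM for liver, 4.89 to 8.66 for heart and 48.6 to 54.8 for pluripotent cells. The erythroid pair held 123 to 128 CPM, and the 3 listed neuronal genes, Mir124a-1, Mir124a-2 and Mir124a-3, were at 0, although all 3 share 22 or more bases with another gene. Genes outside the lists, named after their values were seen, differed from the listed ones. Of neuronal genes, Mir137 held a mean of 129 CPM, Mir128-1 167 and Mir128-2 114, but Mir9-3 2.51. Of heart and skeletal muscle genes, Mir208b held 101 CPM, Mir499 81.1 and Mir133b 75.3. The check thus covers the listed genes only, and the lists were themselves chosen with earlier results of these data known.

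Together the 6 members held 11.2% ± 0.4 (SD, n = 2) of all sense counts. The share was 11.4% in replicate 1 (interval 11.38% to 11.43%) and 10.9% in replicate 2 (10.87% to 10.92%), a difference beyond counting error. Nearly all of it came from the mir-99/100 genes, which made up 94.8% ± 0.2 (SD, n = 2) of the members' counts. The mir-125 genes made up the other 5.22% ± 0.20 (SD, n = 2). It is not known how far reads of miR-125b-5p enter the mir-125 counts. The split is therefore one of counts, not of miRNA levels. All 6 members had at least 10 counts in each library, the level at which a gene was called detected, as had 372 of the 1973 genes (18.9%). Antisense counts over all 6 were 0 in both libraries.

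Mir99a, the mir-99/100 gene of chromosome 16, was the most abundant member and ranked 4 among all genes by mean CPM. It had 374885 counts in replicate 1 and 373999 in replicate 2, or 63247 CPM (63051 to 63443) and 62296 CPM (62102 to 62489). Its mean of 62771 ± 673 CPM (SD, n = 2) lay below that of Mir322 and above that of the cartilage gene Mir140, and its range met that of neither neighbour.

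Mir99b, of chromosome 17, had 159106 and 147077 counts, or 26843 and 24498 CPM in replicates 1 and 2. Its mean was 25670 ± 1658 CPM (SD, n = 2), rank 12. Mir214, next above by mean, was higher in both libraries, but Mir26b, next below by mean at 24862 CPM, was above Mir99b in replicate 2, so that order was not resolved. Mir100, of chromosome 9, had 105653 and 99939 counts, or 17825 and 16646 CPM, with a mean of 17236 ± 833 CPM (SD, n = 2), rank 15. The endothelial gene Mir126a was above it in both libraries, while Mir23a, next below by mean at 15886 CPM, exceeded it in replicate 2.

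Mir125a, the mir-125 gene of chromosome 17, had 24733 and 21436 counts. These are 4173 CPM in replicate 1 and 3571 CPM in replicate 2, with a mean of 3872 ± 426 CPM (SD, n = 2), rank 47. Its neighbours by mean were Mir382 at 4152 CPM and the muscle gene Mir206 at 3841 CPM, and its range overlapped both. It varied most among the members, with a coefficient of variation of 11% against 0.551% to 6.46% for the others.

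Mir125b-1, of chromosome 9, had 8574 and 8617 counts, or 1447 and 1435 CPM, with a mean of 1441 ± 7.9 CPM (SD, n = 2), rank 86. Mir125b-2, of chromosome 16, had 2940 and 3205 counts, or 496 and 534 CPM, with a mean of 515 ± 27 CPM (SD, n = 2), rank 119. Whether reads of the shared miR-125b-5p are among these counts is not known, so they were not read as its level or as its division between the genes. Their neighbours by mean (Mir467e and Mir301 for Mir125b-1, Mir374b and Mir323 for Mir125b-2) all overlapped them in range.

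**Figure D1:**
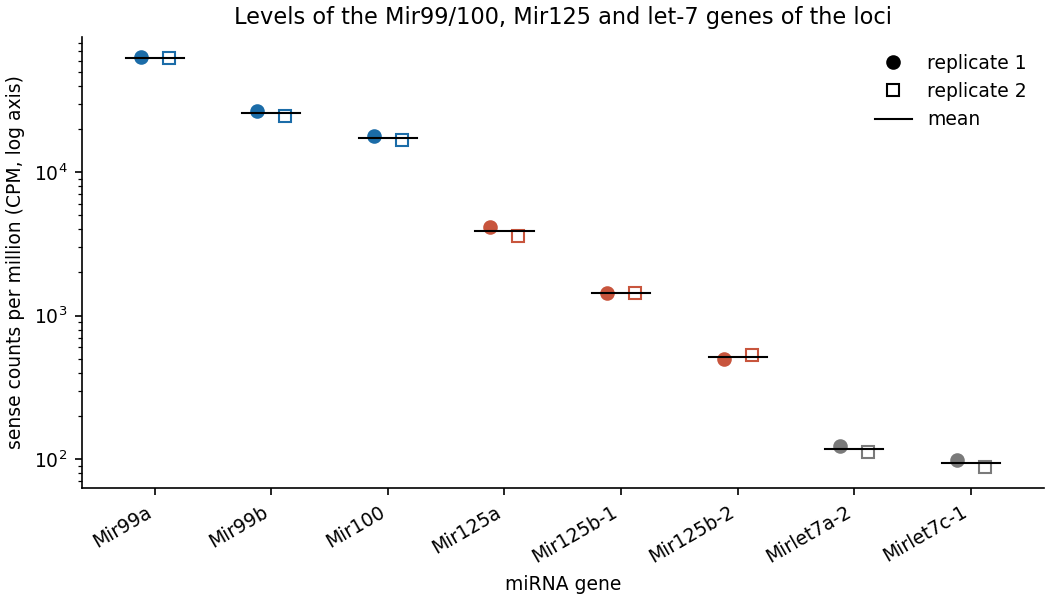
Sense CPM (log axis) of the 6 members and of the let-7 genes counted at the same loci, in replicate 1 (filled circles) and replicate 2 (open squares), with the mean as a line; blue marks mir-99/100, red mir-125 and gray let-7. The libraries lie close together for each gene. The members run from about 62771 CPM for Mir99a down to 515 CPM for Mir125b-2. The let-7 genes were counted lower, at 118 CPM for Mirlet7a-2 and 93.5 CPM for Mirlet7c-1. How far reads of shared let-7 sequences enter those counts is not known.

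In both libraries the members stood in the order Mir99a, Mir99b, Mir100, Mir125a, Mir125b-1, Mir125b-2, and no pair of neighbours in that order overlapped in range. The smallest step was from Mir99b to Mir100, 1.49-fold (log2 0.57 ± 0.02, SD, n = 2), and the largest from Mir100 to Mir125a, 4.46-fold (log2 2.16 ± 0.09, SD, n = 2). Mir99a was 2.45-fold above Mir99b and 3.64-fold above Mir100. Divided by hairpin length the order was the same, from 966 CPM per base for Mir99a to 7.25 CPM per base for Mir125b-2. With 2 libraries an exact test of such a ratio cannot give a two-sided p below 0.5, so none was run.

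**Figure D2:**
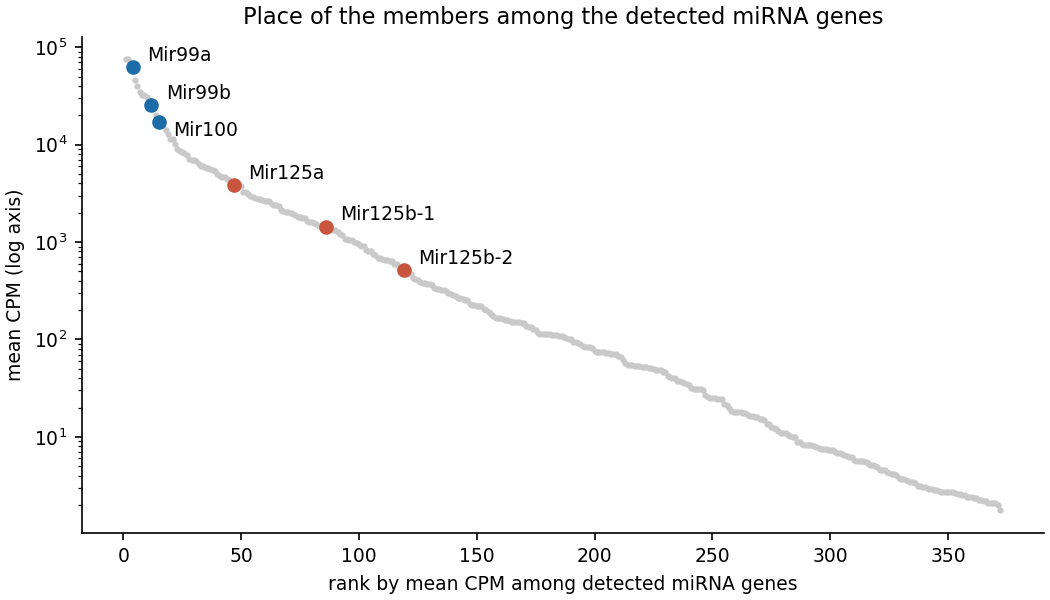
Mean CPM (log axis) of the 372 detected miRNA genes against their rank, with the members marked. The mir-99/100 genes (blue) stand at ranks 4, 12 and 15, and the mir-125 genes (red) at 47, 86 and 119.

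The mir-99/100 genes as a set were counted 18.2-fold above the mir-125 genes, a log2 ratio of 4.18 ± 0.06 (SD, n = 2), with 4.14 in replicate 1 and 4.22 in replicate 2. Without Mir125b-1 and Mir125b-2, which share 24 identical hairpin bases, it was 4.77. That setting removes counts from the mir-125 side only. The multimapping line of the files held 3819178 reads in replicate 1 and 3732521 in replicate 2, more than the 639644 and 621015 counts of all mir-99/100 genes. How many of those reads are miR-125b-5p was not measured, so the order of the miR-99/100 and miR-125 miRNAs in the limb is not given by these counts.

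Each locus holds its genes on the + strand in the order mir-99/100, let-7, mir-125. On chromosome 16 (mm10) Mir99a (ENSMUSG00000065530) lies at 77598936 to 77599000, Mirlet7c-1 656 bases further on, and Mir125b-2 (ENSMUSG00000065472) at 77646273 to 77646343. All lie in introns of the noncoding host gene Mir99ahg: 4 of its 17 annotated transcripts span each hairpin, and none has an exon there. On chromosome 9 Mir100 (ENSMUSG00000093011) lies at 41531425 to 41531504, Mirlet7a-2 5211 bases further on, and Mir125b-1 (ENSMUSG00000093354) at 41581926 to 41582002. Their noncoding host is 3110039I08Rik, which RefSeq lists as Mir100hg, and the hairpins lie in its introns. Mir125b-1 also lies inside the exon of Gm28119, a short sense transcript annotated within that intron. The lincRNA Gm49317 spans all 3 genes too, without an exon over them.

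The chromosome 17 locus is far shorter. Mir99b (ENSMUSG00000065396) at 17830188 to 17830257 and Mir125a (ENSMUSG00000065479) at 17830812 to 17830879 fall within 692 bases, against 47408 bases on chromosome 16 and 50578 on chromosome 9. The host is Spaca6, a protein-coding gene named for its sperm acrosome product, and Mir99b lies in an intron of the 2 transcripts that span it. For Mir125a, 1 transcript of Spaca6 has an exon that overlaps part of the hairpin. Host transcripts were not measured here, because only miRNA genes were counted.

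**Figure D3:**
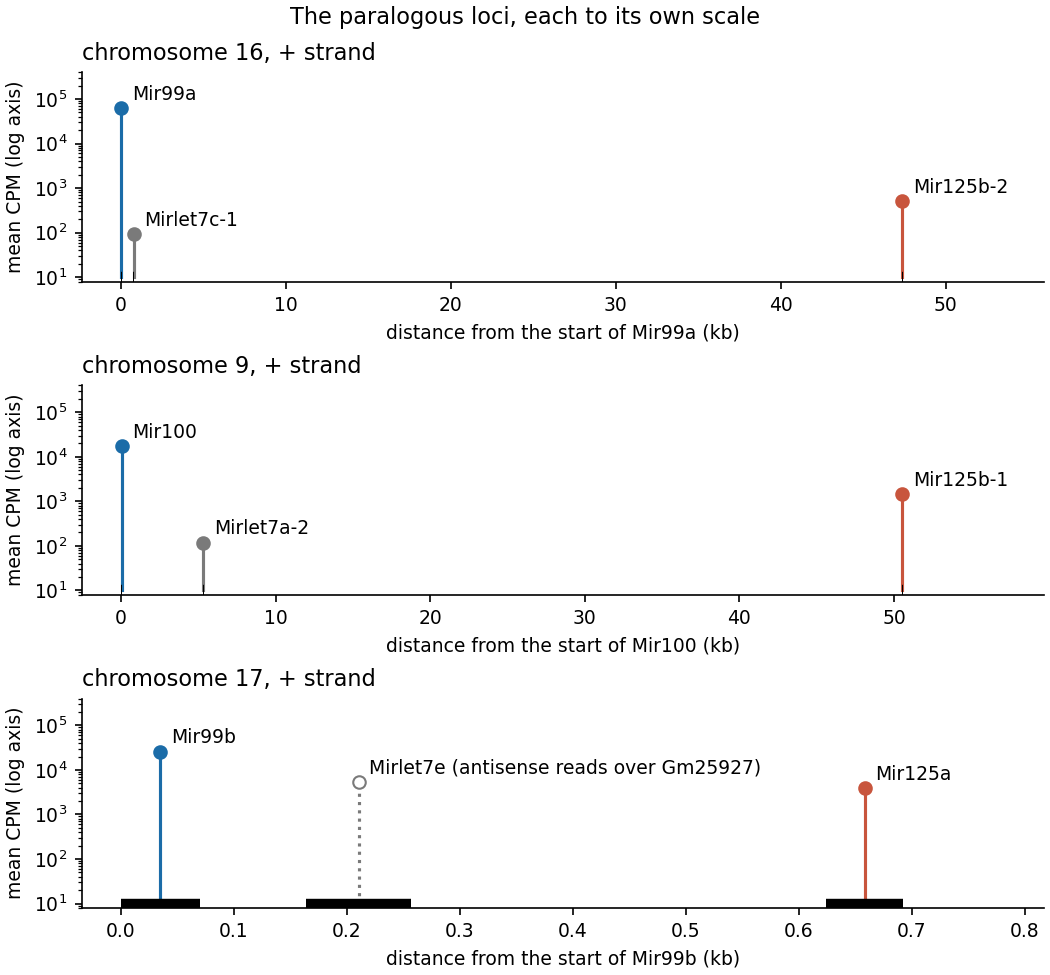
The genes of each locus at their distance in kb from the start of the mir-99/100 gene (x axis, a separate scale per panel; black bars are hairpins), with mean CPM on a log axis. The mir-99/100 gene is highest at each locus; the open circle for Mirlet7e is the antisense level over Gm25927, 5415 CPM.

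Summed over mir-99/100 and mir-125, the chromosome 16 pair held 6.33% ± 0.06 (SD, n = 2) of all sense counts, chromosome 17 2.95% ± 0.21 and chromosome 9 1.87% ± 0.08. These are 56.8%, 26.5% and 16.7% of the members' counts. The order was the same in both libraries. Chromosome 16 was 2.14-fold above chromosome 17 (log2 1.10 ± 0.09, SD, n = 2) and 3.39-fold above chromosome 9 (log2 1.76 ± 0.05). Chromosome 17 was 1.58-fold above chromosome 9 (log2 0.66 ± 0.04). These sums follow the mir-99/100 genes, and how far miR-125b-5p reads enter the chromosome 16 and 9 sums is not known.

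Within a locus, the mir-99/100 gene exceeded the mir-125 gene at all 3 places, by different amounts. Mir99a was 122-fold above Mir125b-2, with log2 ratios of 6.99 and 6.87 in replicates 1 and 2. Mir100 was 12-fold above Mir125b-1, with log2 ratios of 3.62 and 3.54. Mir99b was 6.64-fold above Mir125a, with log2 ratios of 2.69 and 2.78. The last pair is the only locus where neither gene shares 18 or more hairpin bases with another annotated miRNA gene. It is also the pair with the smallest ratio, and the part of shared sequence in the larger ratios was not tested.

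Among the members' own kind, Mir125a was counted 2.68-fold above Mir125b-1 (log2 1.42 ± 0.15, SD, n = 2). Mir125b-1 was 2.80-fold above Mir125b-2 (log2 1.49 ± 0.08). If reads of the shared 5p sequence entered neither gene, the last ratio compares only what is particular to each hairpin. The order is opposite to that of the mir-99/100 genes of the same loci, where Mir99a, beside Mir125b-2, was 3.64-fold above Mir100, beside Mir125b-1.

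The longest stretch that Mir99a shares with any other annotated miRNA gene is 16 bases, with Mir100. For Mir99b it is 11 bases and for Mir125a 14. Mir125b-1 and Mir125b-2 share 24 bases. The let-7 genes of the chromosome 16 and 9 loci are alike in this: Mirlet7c-1 and Mirlet7a-2 share 23 bases with Mirlet7c-2 and Mirlet7a-1. They had the lowest counts of their loci, Mirlet7c-1 588 and 527 (93.5 ± 8.1 CPM, SD, n = 2) and Mirlet7a-2 737 and 668 (118 ± 9 CPM). How far reads of shared let-7 sequences enter these counts is not known, so they were not read as miRNA levels. The part of shared sequence in the low counts was not tested.
The 5p miRNAs of Mirlet7c-1 and Mirlet7e differ in sharing, since the first stands in the hairpins of 2 genes and the other in 1.
let-7c-5p: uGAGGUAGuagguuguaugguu
let-7e-5p: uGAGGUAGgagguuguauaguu

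Over all detected genes, the 67 that share 22 or more bases had a median of 49.4 CPM and reached at most 2853 CPM, in Mir708, named after its values were seen. The 305 other detected genes had a median of 126 CPM. Mir125b-1 and Mir125b-2, at 1441 and 515 CPM, thus lay above the median of the detected genes that share sequence, and the 4 other members above the median of those that do not.

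**Figure D4:**
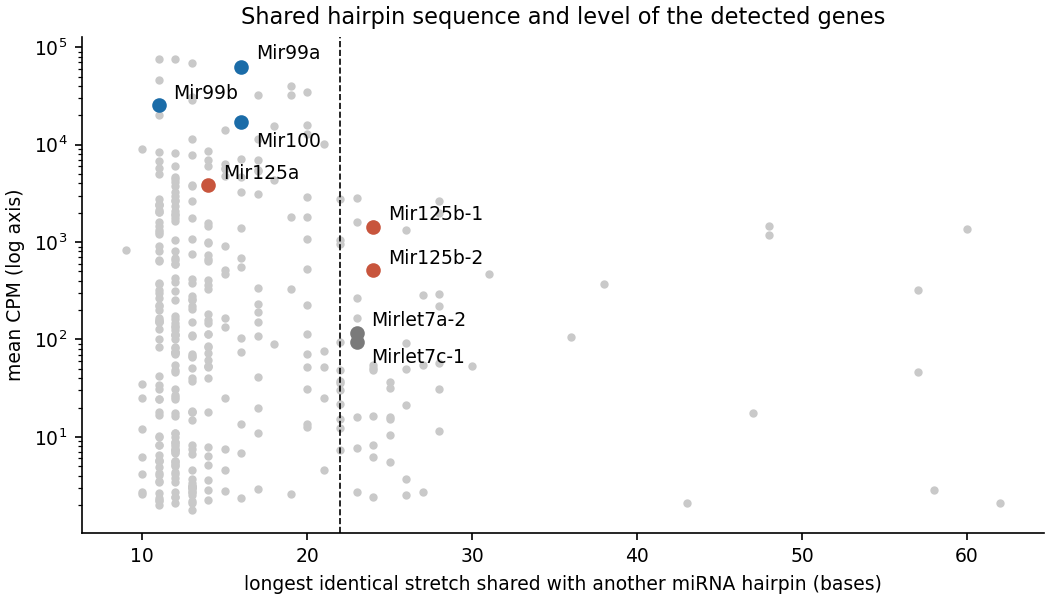
Mean CPM (log axis) of the detected genes against the longest identical stretch shared with another annotated miRNA hairpin, with the members and their let-7 neighbours marked and a dashed line at 22 bases. Mir125b-1 and Mir125b-2 stand at 24 bases, and the other members at 11 to 16.

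The let-7 gene of chromosome 17, Mirlet7e, has no row of its own in the tables used here. Gm25927, a miRNA gene annotated on the other strand at 17830343 to 17830459, covers it with 9 bases to spare before and 15 after. The antisense reads over Gm25927 numbered 32184 in replicate 1 and 32425 in replicate 2, or 5430 and 5401 CPM, and its sense count was 0 in both. These reads lie on the strand of Mirlet7e, between Mir99b and Mir125a. At 5415 ± 20 CPM (SD, n = 2) they lay below Mir99b and above Mir125a in both libraries.

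Of the other genes with these seeds, Mir351 of the X chromosome was counted more than any mir-125 gene: 8253 and 7282 CPM, or 7768 ± 686 CPM (SD, n = 2), rank 27. It was 2.01-fold above Mir125a (log2 1.01 ± 0.03, SD, n = 2). Mir6367 and Mir6394, which also carry the miR-125 seed, had 0 counts, for which the exact 95% interval reaches up to 0.622 CPM in replicate 1 and 0.614 in replicate 2. With Mir351 the miR-125 seed held 1.36% ± 0.11 (SD, n = 2) of counts, against 0.583% ± 0.041 for the members alone. How far reads of the mature sequence shared by the Mir125b genes enter these shares is not known. The shares are therefore of counts, and which gene supplies most of the miR-125 seed in the limb is not given by them. Among counted genes with a RefSeq mature sequence, none outside the members carries the miR-99/100 seed, which held 10.6% ± 0.3. Counted genes without such an entry were not searched for either seed.

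Mir10a and Mir10b, the Hox cluster genes whose 5p miRNAs resemble miR-100-5p, held 1.99% ± 0.02 of counts. The mir-99/100 genes were 5.30-fold above them (log2 2.41 ± 0.03, SD, n = 2). Mir10b, at 13936 and 14265 CPM, was nearest to Mir100, which exceeded it in both libraries, by 1.22-fold on average (log2 0.29 ± 0.09). Against the 10 counted let-7 genes, the 6 members were 1.32-fold higher (log2 0.40 ± 0.16, SD, n = 2), with 0.51 in replicate 1 and 0.28 in replicate 2. That comparison leaves out Mirlet7e and Mirlet7f-1, and the treatment of reads that match several let-7 genes is likewise not known.

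Between the libraries the members differed little. In an exact binomial test with Benjamini-Hochberg adjustment over 444 genes, 0 of 6 members were called at an adjusted p under 0.05 and a change of at least 1 on the log2 scale in either direction, where 3.38% of genes were called. Without the minimum ratio 5 of 6 passed, where 40.3% of genes passed, and 5 had an unadjusted p under 0.05. The exception was Mir125b-1 (log2 ratio -0.01, adjusted p = 0.771, exact binomial test). Mir125a had the largest difference, a log2 ratio of replicate 2 over replicate 1 of -0.22 (adjusted p = 1.51e-61, exact binomial test). Mir99b and Mir100 were lower in replicate 2 by log2 ratios of -0.13 and -0.10, and Mir99a by -0.02. Mir125b-2 was the 1 member higher in replicate 2, by 0.11. The median absolute log2 ratio was 0.10 over the members and 0.13 over the 190 genes of at least 100 CPM. None of those 190 genes reached the minimum ratio, as their largest absolute log2 ratio was 0.73. The lack of called members is thus shared by all genes at or above 100 CPM. As this test sees counting error alone, abundant genes pass it at small ratios.

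**Figure D5:**
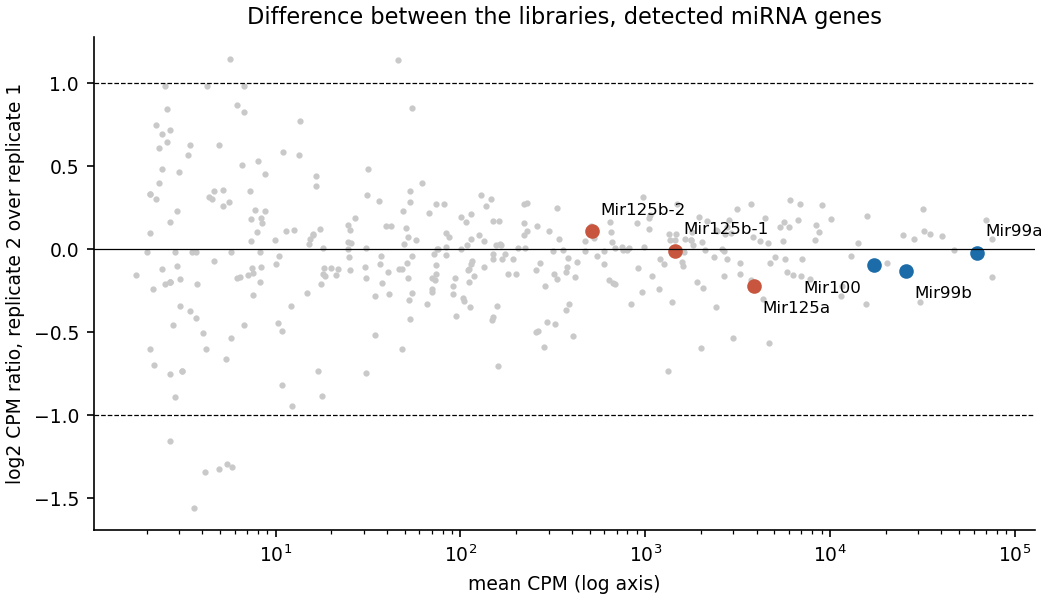
Log2 CPM ratio of replicate 2 over replicate 1 against mean CPM (log axis) for the detected genes, with dashed lines at the minimum ratio of a call. The members lie between -0.22 (Mir125a) and 0.11 (Mir125b-2), inside the dashed lines.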

How the data were processed

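MicroRNA sequencing of short RNA from embryonic day 13.5 limbs gave 1 table of read counts per replicate. The authors deposited raw counts for 1973 miRNA genes in 3 columns (either strand, sense, antisense), aligned to mm10 with annotation M4 per the text deposited with the files. Column meanings were taken from the layout, as no header names them. For the aligner, the counter and their options: not given in the sources used here. Lines naming no gene stayed out of totals: unmapped reads were 17.2% and 18.6% of reads, multimapping reads 30.8% and 29.5%, and sense reads in no gene 4.24% and 4.48%.

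Symbols, coordinates, hosts and hairpins came from GENCODE M21 (GRCm38, the build of mm10), matching 1894 of 1973 identifiers without version, and mature sequences from RefSeq GRCm38.p6. Identical stretches were searched in 2202 annotated hairpins, not in the whole genome. Libraries were compared with an exact binomial test over genes with a sum of at least 10 counts, with 0.5 counts added for ratios. That test and the stretch search were tested on simulated data. SciPy 1.17.1 was used, with edgeR 4.0.16 (TMM) and DESeq2 1.42.0 for other scalings. The genes named were the members, their let-7 partners, genes with the same seeds, Mir10a and Mir10b, the genes next in level and tissue markers. Members, lists and rules were chosen with earlier results of these data known.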

Additional observations from a re-analysis of the deposited data

Results flagged for a closer look

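Reads were found in a column outside the sense counts used for the members. Antisense reads over Gm25927, opposite Mirlet7e in the chromosome 17 locus, had a mean of 5415 CPM, above the 0.506 and 0.4997 CPM to which 3 counts, taken as the limit that a count of 0 allows, correspond in replicates 1 and 2. No control sample exists to set beside it. A search for a sample far from the others was not made, as the group holds 2 libraries.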

How the results depend on the processing

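Of 45 alternative values for the main results, 23 say nothing about stability: 16 leave out 1 of 2 libraries, which always moves a mean by less than 1 SD, and 7 add the antisense counts, which are 0 in the members, to ratios. Of the other 22, 12 moved by less than 1 SD over the libraries (for counts of calls, by less than 1.5 times) and 10 by more, and none changed the direction of a ratio. The members' share was 10.8% with both strands counted, 5.31% of all reads and 11.2% to 11.3% under the other denominators. The log2 ratio of mir-99/100 over mir-125 was 4.77 without genes sharing 22 or more bases. Per hairpin base, chromosome 16 over 9 was 2.06, chromosome 16 over 17 was 1.20, chromosome 17 over 9 was 0.85 and Mir99a over Mir125b-2 was 7.06. With let-7 genes added and the antisense reads over Gm25927 standing for Mirlet7e, an alternative chosen after seeing the data, chromosome 16 over 17 was 0.86 and chromosome 17 over 9 was 0.89. Members called between libraries numbered 5 without the minimum ratio and 0 under TMM, DESeq2 size factors, no count filter and both strands. For all genes those counts were 179 and 13 to 15. The member calls of 0 are among the 12 above and say little about stability. The largest absolute log2 ratio of a member was 0.22, far from the minimum of 1.

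With either library alone the share was 10.9% to 11.4%, the log2 ratio of mir-99/100 over mir-125 4.14 to 4.22, and the locus ratios 1.73 to 1.80, 1.04 to 1.16 and 0.63 to 0.69 for chromosome 16 over 9, 16 over 17 and 17 over 9. Within the loci they were 6.87 to 6.99 for Mir99a over Mir125b-2, 3.54 to 3.62 for Mir100 over Mir125b-1 and 2.69 to 2.78 for Mir99b over Mir125a. No paired analysis was possible because there is 1 group. Depth did not limit the members, whose lowest count was 2940; the share of multimapping reads that belongs to them was not measured.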

Other observations

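The members' 3p miRNAs group differently from their 5p miRNAs. miR-99a-3p and miR-99b-3p share a seed, and miR-100-3p has another, as the printed sequences show.
miR-99a-3p: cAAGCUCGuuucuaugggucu
miR-99b-3p: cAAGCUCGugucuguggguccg
miR-100-3p: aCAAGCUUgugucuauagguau
The counts do not say how many reads came from these arms. Among counted genes with a RefSeq mature sequence, 87 share a mature sequence with another gene and 829 do not. The 87 held 1.67% ± 0.15 (SD, n = 2) of sense counts, and 54.0% of them were detected, against 35.1% of the 829. The median of the detected genes was 49.4 CPM with a listed shared mature sequence and 134 CPM without.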
